A study of Mus musculus with 12 samples.

Results

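Interferon-stimulated genes (ISGs) and cytosolic sensors of RNA were examined in MAFs, the primary adult fibroblasts that grow out of mouse ears. The set held 44 genes, taken by symbol from a list, and all 44 were found among the 49315 genes counted and were among the 17416 genes that had enough reads to be tested. The 4 groups of 3 RNA-seq libraries covered 2 states, control and senescent, in WT and in KO cells, where the WT cells came from adult female C57BL6/J mice and the KO cells from Bmal1-/- mice, which lack the circadian transcription factor BMAL1. Senescence was brought about with 20 Gy of X-rays and further culture, against a sham exposure for controls. Cells of all 4 groups, controls included, were held at 3% oxygen, were treated with 100 nM dexamethasone, a glucocorticoid that synchronises cellular clocks, and were collected 12 h later. The sources used here do not state the strain background of the KO mice or whether the 3 libraries of a group came from separate animals or cultures, so p-values measure only the spread between these libraries, which may be technical. Each genotype was deposited as a table of its own, so that genotype and any difference in handling between the tables cannot be told apart.

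Library totals ranged from 23923030 to 31736083 counted reads. Levels are given as CPM, the reads of a gene scaled to a common library size by edgeR's TMM method, and on this scale 3 reads, used as the detection floor, were worth 0.101 to 0.135 CPM. Arntl, the gene that encodes BMAL1, was lower in each KO control library (11.8 to 15.2 CPM) than in any WT control library (29.8 to 33.2 CPM), with a log2 fold change of −1.26 (SE 0.09), and its reads were counted in all KO libraries. The summed level of 8 fibroblast markers, among them Col1a1, Dcn and Pdgfra, was 19906 to 26189 CPM in control and 9579 to 11891 CPM in senescent libraries, and none of the 8 was at the floor. The sum followed the abundant collagen genes, and the members moved in both directions: Col1a1, Col1a2 and Col3a1 were called lower in senescent cells of both genotypes (−2.06, −1.30 and −1.11 on the log2 scale in WT cells), while Dcn was called higher in both (3.37 in WT and 3.44 in KO cells) and Lum in WT cells (1.46). A list of 6 cartilage markers, among them Col2a1 and Acan, summed to 4554 to 8620 CPM in control libraries and 565 to 2079 CPM in senescent libraries, and the part of cartilage-like cells in the values of the 44 genes was not tested. In bulk RNA, fewer cells of a type and less RNA per cell cannot be told apart.

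Interferons are secreted proteins that warn cells of infection. RIG-I (encoded by Ddx58) and MDA5 (Ifih1) recognise viral or misplaced RNA in the cytosol and signal through the adaptor MAVS to induce type I interferon, which binds the receptor made of IFNAR1 and IFNAR2 and activates the transcription factor complex ISGF3, to which STAT2 and IRF9 belong. ISGF3 binds the interferon-stimulated response element (ISRE) in the promoters of ISGs. Their products inhibit viral entry, replication, translation and release, and the sensors are themselves among them. ISGs are known to rise at late stages of senescence in cultured fibroblasts.

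Promoter sequences of the 44 genes were searched for the ISRE core GAAANNGAAA on either strand, where N is any base. The windows were those of RefSeq on GRCm38.p6, from 250 bases before to 50 bases after each annotated start, and 33 of the 44 genes had an entry. The core was found for 19 of the 33 genes (57.6%), against 3.99% of all 27025 genes with an entry. The following 60-base stretches before the start, read 5′ to 3′ on the strand of the gene, are shown because they carry the core upstream of genes on which the results below turn. Capitals mark the core or its reverse complement, and overlapping matches run together.

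Isg15, chr4:156200850-156200909, minus strand: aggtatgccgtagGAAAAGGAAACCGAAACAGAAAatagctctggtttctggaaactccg
Ifit1, chr19:34640779-34640838, plus strand: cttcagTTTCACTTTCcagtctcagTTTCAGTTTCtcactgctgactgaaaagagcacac
Ifit3, chr19:34583382-34583441, plus strand: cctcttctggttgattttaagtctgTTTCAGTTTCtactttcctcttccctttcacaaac
Ifit3b, chr19:34607778-34607837, plus strand: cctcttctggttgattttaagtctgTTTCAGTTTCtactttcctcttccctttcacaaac
Rsad2, chr12:26456538-26456597, minus strand: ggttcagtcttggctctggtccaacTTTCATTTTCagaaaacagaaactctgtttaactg
Oas1a, chr5:120907526-120907585, minus strand: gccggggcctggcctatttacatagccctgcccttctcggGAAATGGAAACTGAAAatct
Bst2, chr8:71537562-71537621, minus strand: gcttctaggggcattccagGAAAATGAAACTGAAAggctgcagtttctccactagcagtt

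Isg15 held 3 overlapping matches, the highest number for any of the 33 genes, Bst2 and Oas1a held 2 overlapping ones, and the Ifit1 stretch held 2 separate ones. The stretches of Ifit3 and Ifit3b, neighbouring copies on chromosome 19, differed at 0 of 60 bases. Among the 33 genes, the gamma-activated site TTCNNNGAA, an element known from genes that respond to interferon gamma, was found for 9 (27.3%, against 9.55% of all genes), and the AP-1 site TGANTCA for 10 (30.3%, against 8.97%). The E-box CACGTG, the element bound by BMAL1, was found for 1 gene, Trim25 (3.03%, against 8.09%). Base composition was not matched in these shares, and a match describes letters in a window and not a bound site. The 19 genes with an ISRE core had a median log2 fold change with senescence of 2.91 in WT cells and 2.08 in KO cells, and the 14 genes with an entry but no core had medians of 1.48 and 0.99. The 11 genes with no entry, in which the core could not be looked for, had medians of 2.94 and 2.47.

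The response of the 44 genes to senescence was first measured in WT cells. Of the 44, 37 were called higher and 0 lower, where a gene was called if its Benjamini-Hochberg adjusted p in edgeR's quasi-likelihood test (the adjusted value is written QL p) was under 0.05 and the fitted log2 change exceeded 1 in either direction. Over all genes tested, 11.6% were called higher and 5.90% lower. At an adjusted p under 0.05 and any fold change, 40 of the 44 were higher and 0 lower, against 29.2% and 27.0% of all genes. The median log2 fold change of the 44 genes was 2.43, against 0.02 for all genes tested. For 40 of the 44 every WT senescent library was above every WT control library, which held for 33.4% of all genes, and the 4 with overlap were Irf1, Oas3, Trim25 and Epsti1.

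**Figure D1:**
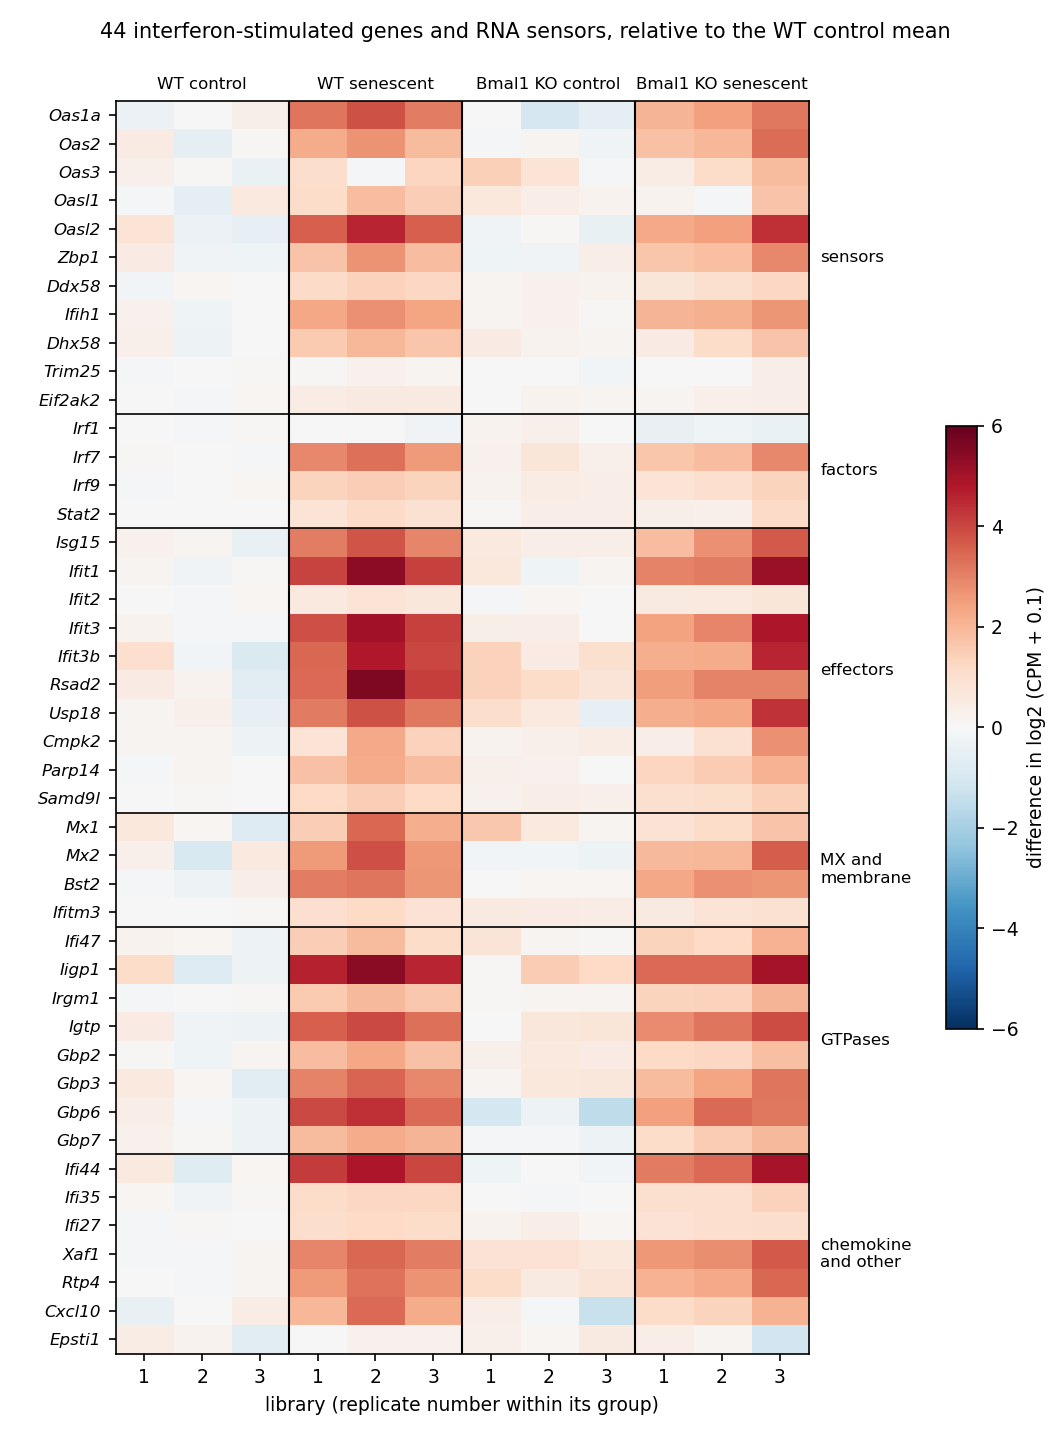
Difference in log2 (CPM + 0.1) of the 44 genes (rows, grouped by role) in each of the 12 libraries (columns, numbered within their group) from the mean of the 3 WT control libraries; red is higher and blue lower. Most rows are red in all 6 senescent libraries, with WT senescent replicate 2 and KO senescent replicate 3 the darkest columns of their groups and with Irf1, Trim25 and Epsti1 close to white.

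Among the 11 sensors and their partners, 8 were called higher in WT senescent cells. Ddx58 (ENSMUSG00000040296, GRCm38 chromosome 4, 40203773 to 40239828, minus strand), the gene of RIG-I, stood at 31.1, 37.9 and 35.0 CPM in replicates 1 to 3 of WT control cells and at 76.7, 91.3 and 82.2 CPM in those of WT senescent cells. In KO cells it was at 38.5, 41.6 and 39.8 CPM in control and 56.8, 67.6 and 81.6 CPM in senescent libraries. Senescent and control libraries did not overlap in either genotype, and KO senescent replicates 1 and 2 lay below all WT senescent libraries while replicate 3 lay among them. The log2 fold change with senescence was 1.27 (SE 0.12, QL p 9.07e-07) in WT cells and 0.78 (SE 0.12, QL p 7.46e-05) in KO cells.

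Ifih1 (ENSMUSG00000026896, chromosome 2, 62595798 to 62646255, minus strand), the gene of MDA5, started lower and changed more. It was at 5.15, 3.54 and 4.33 CPM in control and 22.0, 29.7 and 22.7 CPM in senescent libraries of WT cells, and at 4.88, 5.12 and 4.51 CPM in control and 18.1, 18.9 and 27.1 CPM in senescent libraries of KO cells. Its log2 fold change was 2.51 (SE 0.18, QL p 1.29e-08) in WT and 2.14 (SE 0.18, QL p 6.27e-08) in KO cells. Per kilobase of exon, Ddx58 stood at 4.92 CPM and Ifih1 at 0.532 CPM in WT control cells, and at 11.8 and 3.04 CPM in WT senescent cells, so that the level of Ddx58 was higher in both states. Dhx58, the gene of LGP2, a relative without signalling domains that modulates both sensors, had log2 fold changes of 1.77 (SE 0.25) in WT and 0.93 (SE 0.25) in KO cells, and its exons overlap an antisense gene.

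The 2′-5′ oligoadenylate synthetases detect long RNA duplexes and activate RNase L. In WT cells Oas1a rose from a mean of 0.452 ± 0.133 (SD, n = 3) to 5.57 ± 1.64 CPM, and in KO cells its mean rose from 0.289 ± 0.138 to 3.28 ± 1.39 CPM. Oas2, Oasl1 and Oasl2 were called higher in WT cells with log2 fold changes of 2.74, 1.58 and 3.98. Oas3 lay at 0.0903 to 0.502 CPM in all WT libraries, around the detection floor, and did not pass (QL p 0.173). Zbp1, a sensor of Z-form nucleic acid that can trigger necroptosis, stood at 0.316 to 0.603 CPM in control libraries of WT cells and at 1.53 to 3.17 CPM in their senescent libraries, with log2 fold changes of 2.34 (SE 0.43) in WT and 2.47 (SE 0.42) in KO cells. Trim25 and Eif2ak2, whose control levels per kilobase in WT cells were the highest of the 11 (10.5 and 8.92 CPM), changed least. Eif2ak2, the gene of the RNA-activated kinase PKR, had a log2 fold change of 0.50 (SE 0.07, QL p 4.09e-06) in WT cells, where it stood at 45.6 ± 3.88 and 64.6 ± 2.61 CPM, and Trim25, a ubiquitin ligase in the RIG-I pathway, ranged from 57.9 to 72.8 CPM over the 6 WT libraries and had a QL p of 0.12 in WT cells. In KO cells all senescent libraries were above all control libraries for Trim25, which held for 30.8% of all genes, while those of Eif2ak2 overlapped.

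The 4 transcription factors differed from each other. Irf7 (ENSMUSG00000025498, chromosome 7, 141262706 to 141266481, minus strand), the factor that amplifies interferon gene transcription, stood at 2.01, 1.91 and 1.81 CPM in control libraries of WT cells and at 14.8, 20.0 and 11.6 CPM in their senescent libraries. In KO cells it was at 2.28, 3.20 and 2.40 CPM in control and 6.25, 7.20 and 14.6 CPM in senescent libraries. All senescent libraries were above all control libraries, and KO senescent replicate 3 alone reached the range of WT senescent cells. The log2 fold changes were 3.02 (SE 0.36, QL p 2.84e-05) and 1.82 (SE 0.34, QL p 0.000903). The exons of Irf7 overlap Phrf1 on the opposite strand, and the use of strand in counting was not stated, so reads of the pair cannot be told apart there.

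Irf9 (ENSMUSG00000002325, chromosome 14, 55603571 to 55610030, plus strand), the DNA-binding subunit of ISGF3, was at 20.0, 21.9 and 23.6 CPM in control and 55.2, 61.2 and 54.9 CPM in senescent libraries of WT cells, and at 25.4, 29.3 and 29.0 CPM in control and 39.1, 44.4 and 54.6 CPM in senescent libraries of KO cells. KO control libraries were all above WT control libraries, and KO senescent libraries were all below WT senescent libraries. Its log2 fold change with senescence was 1.39 (SE 0.11, QL p 6.91e-09) in WT and 0.72 (SE 0.10, QL p 1.41e-05) in KO cells. Its exons overlap those of Rnf31. Stat2, which pairs with IRF9 in that complex, had log2 fold changes of 0.96 (SE 0.23, QL p 0.00606) in WT and 0.35 (SE 0.22, QL p 0.215) in KO cells. Irf1, a factor that also answers to interferon gamma and inflammatory signals, stood at 13.8 to 15.7 CPM in control libraries of WT cells and at 13.0 to 14.9 CPM in their senescent libraries. In KO cells Irf1 was at 14.9 to 18.3 CPM in control and 10.8 to 12.6 CPM in senescent libraries, and it fell by 0.54 on the log2 scale (SE 0.10, QL p 9.42e-05). No other gene of the 44 passed the test with a lower level in senescent cells of either genotype.

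**Figure D2:**
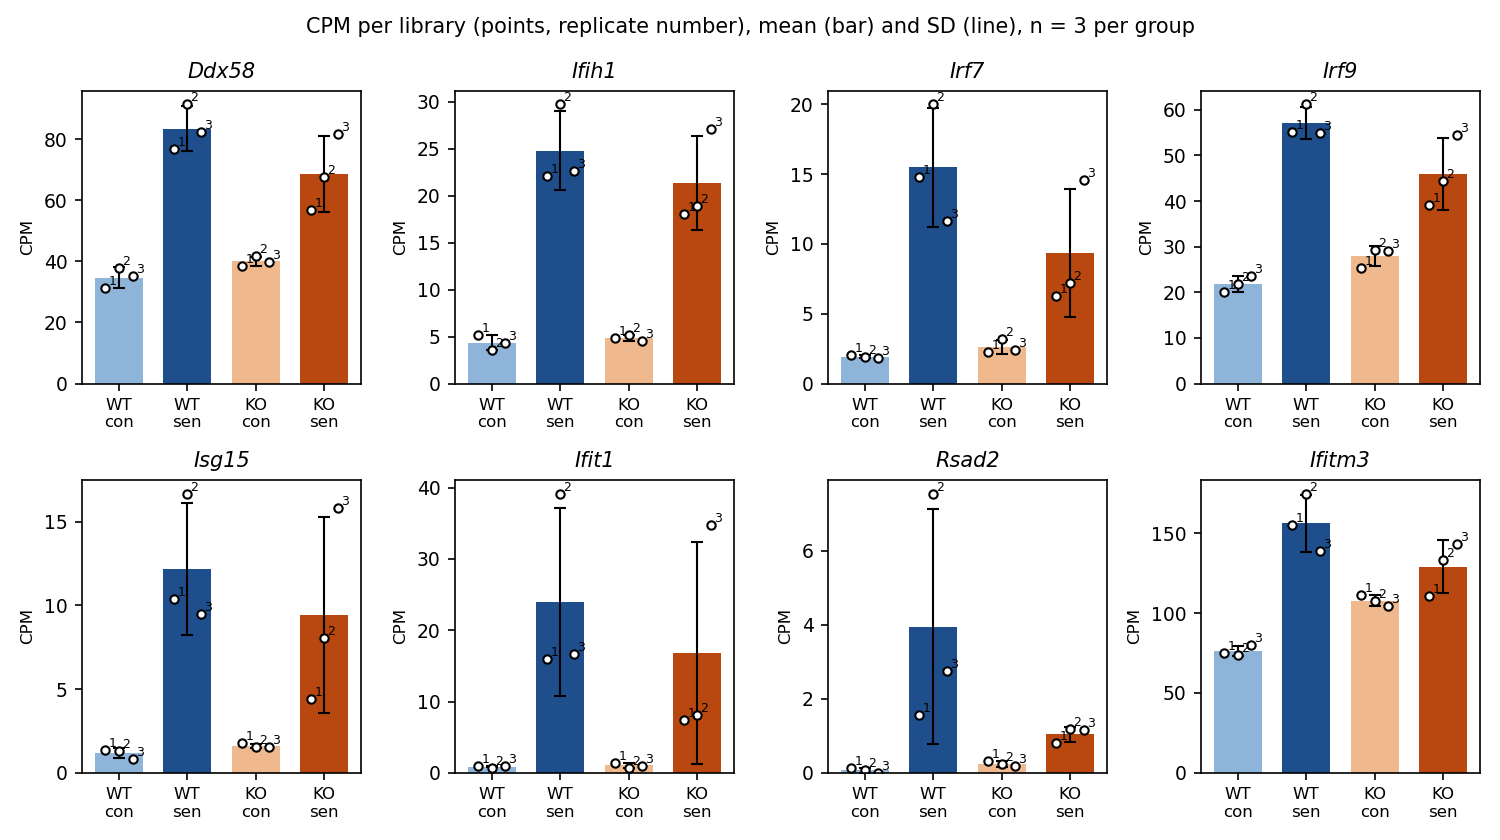
CPM of 8 of the genes in each library (points, numbered by replicate), with the group mean (bar) and SD (line, n = 3) in each genotype and state on linear axes that start at 0. WT senescent replicate 2 and KO senescent replicate 3 are the highest points of their groups in all panels but Rsad2, where KO senescent replicate 2 is at 1.17 and replicate 3 at 1.15 CPM.

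The 10 effectors had the largest median log2 fold changes of the 6 role groups (3.42 in WT and 2.32 in KO cells), and 9 of them were called higher in WT and 7 in KO cells. Isg15 (ENSMUSG00000035692, chromosome 4, 156199424 to 156200818, minus strand), which encodes a ubiquitin-like modifier, was at 1.37, 1.30 and 0.813 CPM in control and 10.4, 16.7 and 9.45 CPM in senescent libraries of WT cells, and at 1.76, 1.52 and 1.55 CPM in control and 4.40, 8.05 and 15.8 CPM in senescent libraries of KO cells. Within KO senescent cells the values spanned 4.40 to 15.8 CPM, a wider range than in WT senescent cells. The log2 fold change of Isg15 was 3.38 (SE 0.51, QL p 0.000342) in WT and 2.56 (SE 0.49, QL p 0.00146) in KO cells. Usp18, the protease that removes ISG15 and restrains the interferon receptor, rose by 3.46 (SE 0.76) and 2.86 (SE 0.71) on the log2 scale.

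The IFIT proteins bind foreign RNA ends and block its translation. Ifit1 (ENSMUSG00000034459, chromosome 19, 34640871 to 34650009, plus strand) stood at 0.965, 0.733 and 0.903 CPM in control libraries of WT cells and at 16.0, 39.2 and 16.7 CPM in their senescent libraries. In KO cells it was at 1.40, 0.707 and 0.987 CPM in control and 7.45, 8.16 and 34.8 CPM in senescent libraries. In each senescent group 1 library stood more than 2-fold above the others. The log2 fold changes were 4.78 (SE 0.88, QL p 0.00154) and 4.05 (SE 0.86, QL p 0.00337). Ifit3 changed by 4.53 (SE 0.83) in WT and 3.64 (SE 0.80) in KO cells, and Ifit3b, whose reads could be split with its copy Ifit3, by 4.25 (SE 0.93) and 2.64 (SE 0.85). Ifit2 was the effector that changed least, from 21.6 ± 1.86 to 35.2 ± 3.09 CPM in WT cells (log2 fold change 0.70, SE 0.09), and its control level per kilobase, 5.50 CPM, was above those of Ifit1 (0.326 CPM) and Ifit3 (0.718 CPM).

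Rsad2 (ENSMUSG00000020641, chromosome 12, 26442746 to 26456452, minus strand) encodes viperin, an enzyme that makes a chain-terminating nucleotide, and its neighbour Cmpk2 encodes a nucleotide kinase. Rsad2 stood at 0.121, 0.0814 and 0 CPM in control libraries of WT cells and at 1.56, 7.54 and 2.74 CPM in their senescent libraries. It was at 0.320, 0.236 and 0.172 CPM in KO control and 0.810, 1.17 and 1.15 CPM in KO senescent libraries. WT control libraries held 5 reads in all, against 341 in WT senescent libraries, a ratio of 57.4 with a 95% counting interval of 24.4 to 178. The fitted log2 fold change was 5.74 (SE 0.74, QL p 1.11e-05) in WT cells, the largest of the 44, and 2.08 (SE 0.65, QL p 0.014) in KO cells. Cmpk2 had a log2 fold change of 1.73 (SE 0.64, QL p 0.0368) in WT cells, and this call was lost on leaving out any of 8 of the 12 libraries, with a QL p of up to 0.134 without WT control replicate 3. Parp14, a mono-ADP-ribosyltransferase, rose from 5.17 ± 0.541 to 20.1 ± 3.56 CPM and Samd9l, a translation repressor, from 36.5 ± 1.33 to 90.3 ± 10.4 CPM in WT cells.

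All 4 genes of the membrane-acting and MX group were called higher in WT senescent cells. Bst2, the gene of tetherin, which holds budding virions at the cell surface, had a mean of 8.04 ± 2.06 CPM in control and 63.1 ± 12.2 CPM in senescent WT cells, and of 8.35 ± 0.367 and 47.9 ± 6.69 CPM in KO cells, and per kilobase it reached 69.8 CPM in WT senescent cells. Ifitm3 (ENSMUSG00000025492, chromosome 7, 141009586 to 141010770, minus strand), which blocks viral fusion in endosomes, stood at 75.3, 74.0 and 80.0 CPM in control libraries of WT cells and at 155, 175 and 139 CPM in their senescent libraries. In KO cells it was at 111, 108 and 105 CPM in control and 111, 133 and 143 CPM in senescent libraries, so that the ranges of KO control and KO senescent cells met at 111 CPM. Its log2 fold change was 1.03 (SE 0.09, QL p 1e-07) in WT and 0.26 (SE 0.09, QL p 0.0213) in KO cells. Without WT senescent replicate 2 the WT value was 0.95, under the threshold for a call. The dynamin-like GTPase genes Mx1 and Mx2 were at or under 0.406 CPM in all WT control libraries and rose by 3.01 (SE 0.65) and 3.41 (SE 0.66) in WT cells. In KO cells Mx2 rose by 3.48 (SE 0.70), whereas Mx1 had a log2 fold change of 0.46 (SE 0.62, QL p 0.549). In the annotation used, Mx2 is a polymorphic pseudogene and not a protein-coding gene.

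The 8 immunity-related and guanylate-binding GTPases, which act on vacuoles that hold pathogens, were called higher in both genotypes. In WT cells their log2 fold changes ran from 1.58 (SE 0.29) for Ifi47 to 4.91 (SE 0.74) for Iigp1, with Igtp at 3.70 (SE 0.37), Gbp3 at 3.10 (SE 0.41), Gbp7 at 2.07 (SE 0.20) and Irgm1 at 1.73 (SE 0.19). Gbp6 was at 0.282, 0.163 and 0.135 CPM in control and 4.32, 5.93 and 2.89 CPM in senescent libraries of WT cells, and at 0.0400, 0.135 and 0 CPM in control and 1.51 to 2.94 CPM in senescent libraries of KO cells. KO control libraries held 5 reads of Gbp6 and KO senescent libraries 196, a ratio of 36.5 with a 95% counting interval of 15.4 to 114. Gbp2 (ENSMUSG00000028270, chromosome 3, 142620602 to 142638008, plus strand) was at 5.23, 4.19 and 5.69 CPM in control and 18.5, 25.7 and 16.9 CPM in senescent libraries of WT cells, and at 6.16, 7.44 and 7.04 CPM in control and 11.6, 11.8 and 17.9 CPM in senescent libraries of KO cells. Its log2 fold change was 2.02 (SE 0.20, QL p 1.02e-06) in WT and 1.00 (SE 0.20, QL p 0.000595) in KO cells, where it lay at the threshold for a call and was 0.76 without KO senescent replicate 3. Reads of the GBP genes can be split between near-identical copies.

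Of the 7 remaining genes, 6 were called higher in WT cells. Cxcl10, a chemokine that attracts T cells, stood at 0.241 to 0.542 CPM in control libraries of WT cells and at 1.73, 4.78 and 2.08 CPM in their senescent libraries (log2 fold change 2.91, SE 0.50). In KO cells it was at 0.0859 to 0.520 CPM in control and 0.888 to 1.89 CPM in senescent libraries (2.00, SE 0.54). Its exons overlap Art3 on the opposite strand. Ifi44 rose by 4.47 (SE 0.67) in WT and 4.36 (SE 0.68) in KO cells, Xaf1, a pro-apoptotic factor, by 3.25 (SE 0.30) and 2.37 (SE 0.27), and Rtp4, a chaperone of surface receptors, by 2.94 (SE 0.43) and 1.96 (SE 0.40). Ifi27, which encodes a mitochondrial protein, had a WT control level per kilobase (38.1 CPM) that only Ifitm3 (113 CPM) exceeded among the 44, and log2 fold changes of 1.10 (SE 0.07) and 0.72 (SE 0.07), and Ifi35 of 1.18 (SE 0.11) and 1.15 (SE 0.11). Epsti1 lay at 0.0675 to 0.429 CPM over all 12 libraries and passed in neither genotype, with QL p 0.872 in WT and 0.469 in KO cells.

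At 4 of the 44 genes, Gbp6, Mx2, Oas2 and Rsad2, every control library held fewer than 10 reads, so that they were tested on the reads of senescent libraries and had to differ. With these 4 set aside, a choice made after seeing the data, 33 of 40 genes were called higher in WT cells and 24 of 40 in KO cells. Of all genes tested, 11.6% were called higher in WT and 11.2% in KO cells. In a fit of the control libraries alone, 35 of the 44 genes had enough reads to be tested. The 40 therefore still held genes tested on the reads of senescent libraries.

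The senescence response of KO cells addressed whether these genes rise without BMAL1. Of the 44 genes, 28 were called higher in KO senescent cells and 0 lower, against 11.2% and 7.58% of all genes. At an adjusted p under 0.05 and any fold change, 36 were higher and 1, Irf1, was lower, against 28.5% and 28.6%. The median log2 fold change was 1.79, against −0.0028 for all genes. KO senescent libraries were all above KO control libraries for 35 of the 44, which held for 30.8% of all genes. All 28 genes were also called in WT cells, 9 were called in WT cells only (Cmpk2, Ddx58, Dhx58, Ifi27, Ifitm3, Irf9, Mx1, Oasl1 and Samd9l), and 7 in neither genotype (Eif2ak2, Epsti1, Ifit2, Irf1, Oas3, Stat2 and Trim25). Across the 44 genes the WT and KO log2 fold changes, which share no library, had a Pearson r of 0.867 and a Spearman rho of 0.903, given as a description because these genes are not independent. The WT value was the larger for 39 of the 44.

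**Figure D3:**
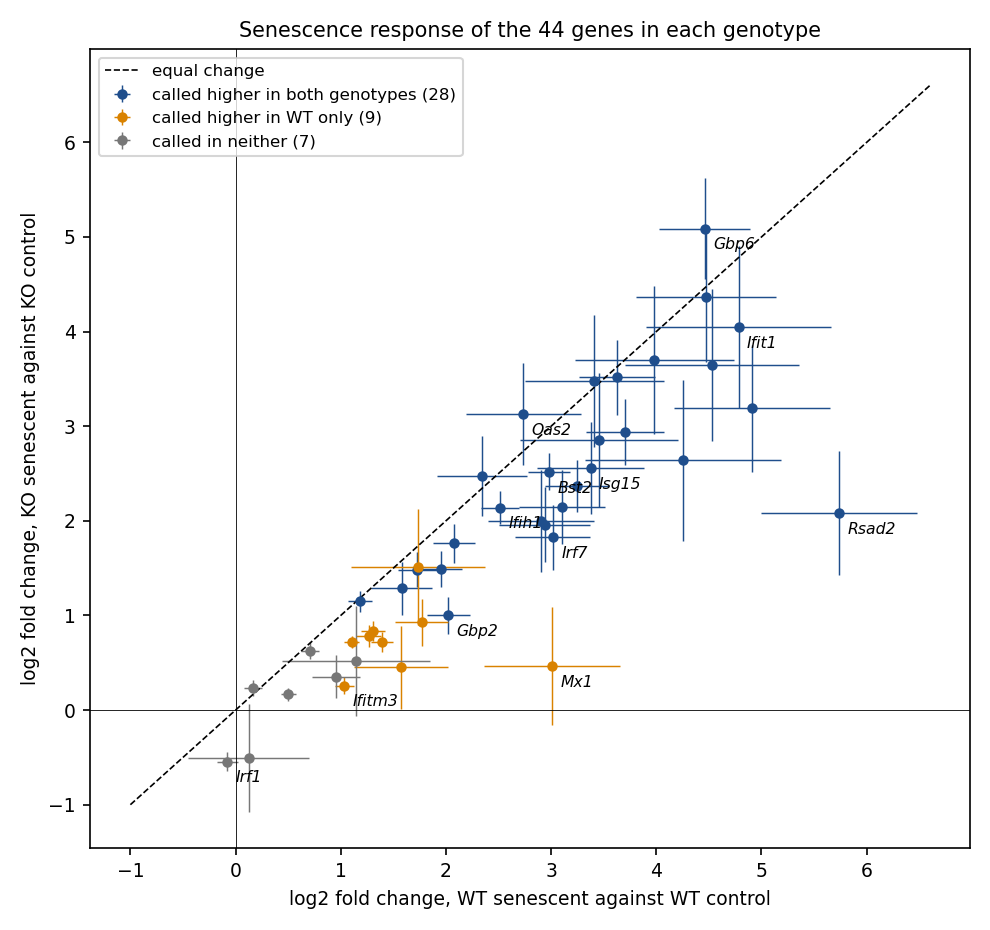
Log2 fold change with senescence in WT cells (horizontal axis) and in KO cells (vertical axis) for the 44 genes, with lines of 1 SE and colours for the 28 genes called higher in both genotypes, the 9 called in WT only and the 7 called in neither. Of the 44 points, 39 lie below the dashed line of equal change, with Rsad2, Mx1 and Gbp2 among those set off from it, and Gbp6 and Oas2 lie above it.

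Whether the response differed between genotypes was tested with the interaction, the KO log2 fold change less the WT one. It was called lower for 2 of the 44 genes and higher for 0, against 2.51% and 1.15% of all genes. Rsad2 had an interaction of −3.65 (SE 1.16, QL p 0.0389), and Gbp2 of −1.02 (SE 0.28, QL p 0.021). The call of Rsad2 was lost without any 1 of the 6 control or 3 KO senescent libraries (QL p of up to 0.129, without WT control replicate 3), and Gbp2 no longer passed without WT control replicate 2, KO control replicate 2 or KO control replicate 3 (up to 0.0672). Without WT senescent replicate 2, KO senescent replicate 1 or KO senescent replicate 2 the Gbp2 interaction still passed, at −0.82, −0.91 and −0.92, which is short of the fold needed for a call. At any size 8 of the 44 passed, all lower in KO cells, against 11.7% of all genes, and 0 were higher, against 9.24%. The other 6 were Ifitm3 (−0.78, SE 0.13, QL p 0.000641), Irf9 (−0.67, SE 0.15, QL p 0.00423), Ifi27 (−0.38, SE 0.10, QL p 0.00727), Eif2ak2 (−0.34, SE 0.10, QL p 0.0223), Irf1 (−0.47, SE 0.14, QL p 0.0238) and Samd9l (−0.47, SE 0.15, QL p 0.0474). On leaving out each of the 12 libraries in turn Irf9, Ifitm3 and Ifi27 passed every time, while Samd9l failed without any of 9 libraries (QL p of up to 0.117) and Eif2ak2 and Irf1 without any of 5 (up to 0.0712 and 0.0804). Of the 9 genes called in WT cells only, the interaction passed for 4 (Ifi27, Ifitm3, Irf9 and Samd9l), so a difference between genotypes was not shown for Cmpk2, Ddx58, Dhx58, Mx1 and Oasl1. Ddx58 had an interaction of −0.48 (SE 0.17, QL p 0.0563). The interaction was negative for 39 of the 44 genes, with a median of −0.54, against 53.0% of all genes and a median of −0.03. On leaving out 1 library it was negative for 34 to 43 genes, with medians from −0.89 (without KO senescent replicate 3) to −0.36 (without WT senescent replicate 2).

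Comparisons at the same state located the differences in level. Between KO and WT control cells 0 of the 44 genes were called by edgeR's QL test, against 1.36% higher and 1.18% lower of all genes, and 0 by DESeq2, while 5 had an unadjusted p under 0.05. At any size 3 genes were higher in KO control cells, against 8.07% of all genes, and 0 were lower, against 4.96%. These were Ifitm3 (log2 fold change 0.50, SE 0.09, QL p 0.00173), Ifi27 (0.26, SE 0.07, QL p 0.0175) and Irf9 (0.36, SE 0.11, QL p 0.0392). All 3 KO control libraries were above all 3 WT control libraries for 14 of the 44 genes, which held for 15.6% of all genes. Irf9 no longer passed on leaving out any of 6 libraries and Ifi27 any of 2, with QL p of up to 0.166 and 0.139.

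Between KO and WT senescent cells 1 of the 44 genes, Rsad2, was called lower (log2 fold change −1.91, SE 0.48, QL p 0.00983), against 2.19% of all genes, and 0 were called higher, against 1.29%. At any size 7 passed as lower in KO cells, against 11.8% of all genes, and these were Rsad2, Gbp2 (−0.57, SE 0.18), Gbp6 (−0.92, SE 0.31), Irf9 (−0.31, SE 0.10), Irf1 (−0.29, SE 0.10), Eif2ak2 (−0.20, SE 0.07) and Ifitm3 (−0.28, SE 0.09). Each of these 7 was lost without WT senescent replicate 2, where Rsad2 had a QL p of 0.0858. The value was negative for 39 of the 44, with a median of −0.30, against 52.5% and −0.02 for all genes. The median was −0.67 without KO senescent replicate 3, −0.18 without WT senescent replicate 2 and −0.16 without KO senescent replicate 1. KO senescent libraries were all below WT senescent libraries for 4 genes, Rsad2, Irf1, Irf9 and Eif2ak2, while this held for 21.0% of all genes.

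These genotype counts changed with single libraries. WT senescent replicate 2 was the highest library of its group for 41 of the 44 genes and for 32.8% of all genes, and KO senescent replicate 3 for 39 of the 44 and 37.4% of all genes. KO senescent replicate 1 was the lowest of its group for 40 of the 44 and for 32.1% of all genes. The median ratio of KO senescent replicate 3 to the mean of the other two was 1.84 over the 44 genes and 1.00 over all genes, and the ratio was over 2 for 18 of the 44 and for 1.35% of all genes. For WT senescent replicate 2 the median ratio was 1.48, against 0.999, and 8 of the 44 were over 2, against 1.21%. The median difference of the 44 genes from the WT control mean, in log2 CPM, was 1.89, 2.77 and 2.02 in WT senescent replicates 1 to 3 and 1.35, 1.54 and 2.39 in KO senescent replicates 1 to 3, so the groups overlapped. In WT control libraries it was −0.06 to 0.15 and in KO control libraries 0.17 to 0.28.

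Without KO senescent replicate 3, 13 of the 44 genes were called lower in KO senescent cells, relative to WT senescent cells, and 28 passed at any size, and the interaction was called lower for 11 and passed for 21. Of all 17893 genes in that fit, 495 were called in either direction between senescent cells and 514 in the interaction. The share of all genes that passed at any size was not counted in that fit. With all 12 libraries, 11.8% of all genes passed as lower between senescent cells and 11.7% in the interaction. The 13 included Irf7 (−1.20, SE 0.19), Ifit1 (−1.62, SE 0.41) and Ifit3 (−1.77, SE 0.35), and Isg15 stood at −0.96 (SE 0.27, QL p 0.0212). Without WT senescent replicate 2, 0 of the 44 were called or passed in that comparison by edgeR's QL test (6 had an unadjusted p under 0.05), and the values of Ifit1 and Isg15 were 0.05 (SE 0.63) and −0.07 (SE 0.41). The value was negative for 43 of the 44 genes without the first library and for 32 without the second. By contrast, calls of senescence against control rested little on single libraries, and 35 of the 37 WT calls and 24 of the 28 KO calls held on leaving out each of the 12 libraries in turn. Of the other 4 in KO cells, Ifit3b no longer passed without any 1 of the 3 KO control libraries (QL p of up to 0.0903) and Rsad2 without KO control replicate 2 or 3 (up to 0.0577). Gbp2, at a log2 fold change of 1.00, fell short of the fold without any of several libraries, and Ifi47 did so without KO senescent replicate 3 (0.94).

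**Figure D4:**
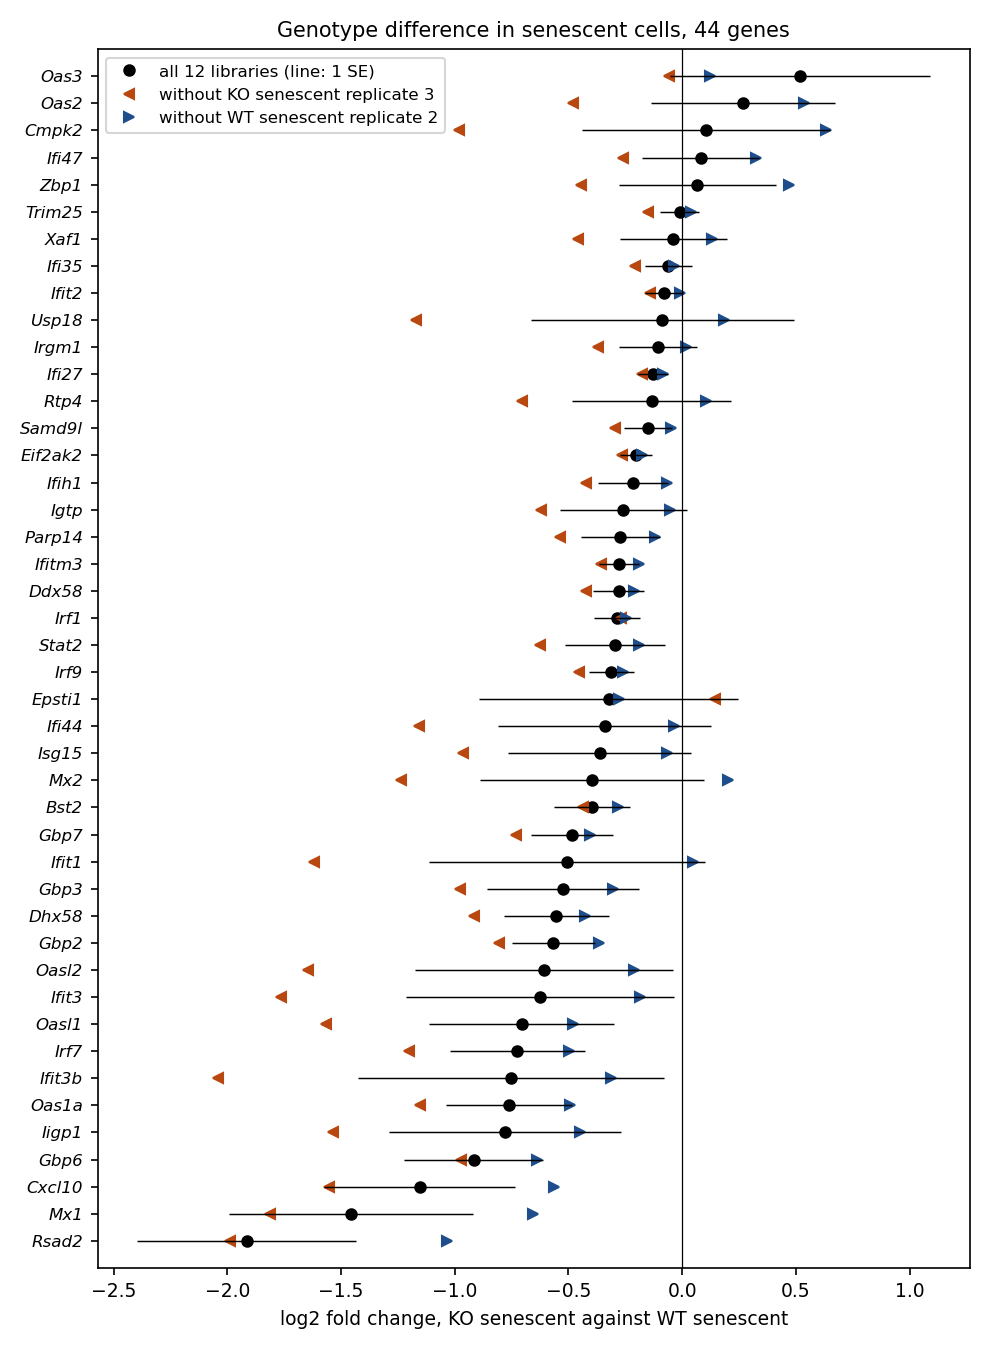
Log2 fold change of KO senescent against WT senescent cells for each of the 44 genes, with all 12 libraries (black circles, line of 1 SE), without KO senescent replicate 3 (orange triangles) and without WT senescent replicate 2 (blue triangles). Most orange triangles lie to the left of the circles and most blue ones to the right, and the number of genes below 0 is 39, 43 and 32.

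Measures that could stand apart in these libraries were set beside them. The summed level of 8 macrophage markers was 16.0, 13.7 and 16.6 CPM in WT senescent and 15.1, 11.2 and 10.1 CPM in KO senescent replicates 1 to 3, and 8.64 to 15.9 CPM in controls. That of 6 T and B cell markers was highest in replicate 1 of both senescent groups (12.7 CPM in WT and 10.1 CPM in KO cells), and Cd3e and Cd3d held 3 reads or fewer in every library. For 5 dendritic cell markers (without Bst2, one of the 44 genes) the sums were 6.06, 5.56 and 4.09 CPM and 6.91, 6.99 and 5.47 CPM, with Siglech at 3 reads or fewer in every library. In none of these sums was WT senescent replicate 2 or KO senescent replicate 3 the highest library of its group. Single markers could move apart from the sums. Of 4 macrophage markers with enough reads for the test, 1 was called higher with senescence in each genotype. Of 2 such T and B cell markers, 2 were called lower in KO cells and 0 in WT cells. Of 4 such dendritic cell markers, here with Bst2, 2 were called higher in WT and 3 in KO cells. Over all genes 11.6% were called higher and 5.90% lower in WT cells, and 11.2% and 7.58% in KO cells. Dendritic cell markers were higher in senescent (4.09 to 6.99 CPM) than in control libraries (3.10 to 3.87 CPM), and the sum of 6 keratinocyte markers was higher in WT senescent libraries (18.0 to 19.1 CPM) than in the other groups (9.98 to 14.3 CPM). Of these 6, Krt14, Krt1 and Dsg3 were at the floor in WT senescent libraries, only 3 had enough reads for the test, and 1 of them, Krt5, was called higher in WT cells. Their part in the changes of the 44 genes was not tested.

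The ligands and the signalling path upstream of the 44 genes were counted in the same fit. None of 21 interferon genes had enough reads to be tested. Their reads summed to 18 in WT control, 46 in WT senescent, 5 in KO control and 34 in KO senescent cells. Ifnz held 12, 20, 3 and 8 of these. More genes of any kind had reads in senescent libraries (25132 to 26043) than in control libraries (22481 to 23531). Reads of the 15 interferon alpha and beta genes summed to 0 in each of the 6 control libraries, to 7, 6 and 7 in WT senescent replicates 1 to 3 and to 3, 13 and 9 in KO senescent replicates 1 to 3. Of these, Ifnb1 held 1 read in all of WT senescent cells and 2 in KO senescent cells. WT senescent replicate 2, highest in its group for most of the 44 genes, thus had 6 of these reads and KO senescent replicate 3 had 9, neither the most in its group, and these counts were not compared with a test.

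Of 11 receptor and JAK-STAT genes, 1 was called higher in each genotype, a share near that of all genes (11.6% in WT and 11.2% in KO cells). It was Ifnlr1, the receptor of interferon lambda (2.59, SE 0.51, in WT and 1.95, SE 0.52, in KO cells). The type I receptor chains changed by −0.23 (Ifnar1, SE 0.05) and 0.43 (Ifnar2, SE 0.08) in WT and by −0.23 (SE 0.05) and 0.27 (SE 0.08) in KO cells. A list of 12 adaptors, kinases and related genes also held Tlr3, which encodes an endosomal RNA receptor. Tlr3 was the 1 gene of this list called higher in WT cells (1.06, SE 0.12), against 11.6% of all genes. In KO cells 0 of the 12 were called higher, against 11.2% (0.41, SE 0.12, for Tlr3, with an interaction of −0.65 and a QL p of 0.00962). Mavs changed by 0.47 (SE 0.07) and 0.70 (SE 0.07), and Irf3, the factor that it activates, by −0.25 (SE 0.07) and −0.41 (SE 0.07).

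Genes of cytosolic DNA sensing were also counted. Of 13 listed, 12 were tested, and 2 were called higher and 2 lower in WT cells (11.6% and 5.90% of all genes) and 2 higher and 3 lower in KO cells (11.2% and 7.58% of all genes). Mb21d1, the gene of the DNA sensor cGAS, fell by 1.80 (SE 0.10) in WT and by 1.76 (SE 0.10) in KO cells on the log2 scale, and Rnaseh2b, a subunit of RNase H2, by 1.34 (SE 0.11) and 1.21 (SE 0.11). Tmem173, the gene of STING, which relays the cGAS signal, fell by 0.89 (SE 0.09) and 1.21 (SE 0.09). The interferon-inducible DNA-binding genes Ifi203 and Ifi204 rose by 2.51 (SE 0.27) and 1.75 (SE 0.19) in WT cells and by 1.68 (SE 0.25) and 1.48 (SE 0.18) in KO cells. Of 10 negative regulators, Nlrc5 was called higher (3.11, SE 0.19, and 2.36, SE 0.18) and Socs3 lower (−1.04, SE 0.07, and −1.46, SE 0.07) in both genotypes. With 1 gene in each direction, these counts were near the shares of all genes given above.

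A further 46 ISGs outside the 44 were listed, of which 43 were tested. In WT cells 26 were called higher and 1 lower, and in KO cells 15 and 1, with medians of 1.49 and 0.82. Over all genes the shares called higher and lower were 11.6% and 5.90% in WT and 11.2% and 7.58% in KO cells. Oas1g, a near-identical copy of Oas1a, had 0 reads in all control libraries and was at least 5.86-fold higher in WT and at least 1.88-fold higher in KO senescent cells against a floor of 3 reads per library, and the medians were the same with it at these bounds. The 1 called lower was Slfn9 in both genotypes (−2.34, SE 0.09, and −3.33, SE 0.10). The interaction was called lower for 4 of the 43, Tgtp1 (−2.68, SE 0.53, QL p 0.00244), Gbp9 (−1.76, SE 0.33, QL p 0.000802), Trim30a (−1.54, SE 0.34, QL p 0.00379) and Uba7 (−1.14, SE 0.28, QL p 0.00548), and higher for 0. Uba7 encodes the enzyme that activates ISG15 for conjugation, and Tgtp1 and Gbp9 belong to the same GTPase families as the 8 above. Each of these 4 passed in all 19 fits run, and Tgtp1 has a near-identical copy, Tgtp2. Over all genes the interaction was called lower for 2.51% and higher for 1.15%. It was negative for 41 of the 43, with a median of −0.63, against 53.0% and −0.03 for all genes.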

How the data were processed

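RNA was extracted from WT and KO MAFs, control and senescent, with 3 libraries per group, and poly(A) libraries were sequenced as paired reads. The authors trimmed reads with Trimmomatic 0.36, aligned them to GRCm38 with STAR 2.5.2b and deposited whole-number counts of uniquely mapped reads in exons, made with featureCounts, in 1 table per genotype. The annotation release and the strand setting are not given in the sources used here, and the authors' own comparisons were made with DESeq2.

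The 12 columns of counts were joined by gene identifier. Genes were filtered with filterByExpr, scaled by TMM and tested in edgeR 4.0.16 (R 4.3.3, limma 3.58.1) with a robust quasi-likelihood fit to all 12 libraries and 1 coefficient per group. A call required a Benjamini-Hochberg adjusted p under 0.05 and a log2 fold change over 1 in size. Library totals of 23923030 to 31736083 reads set the precision of low genes, and counting intervals and floors cover counting error only. Scripts were tested on simulated data. Alternatives were DESeq2 size factors, the DESeq2 1.42.0 Wald test, no or a stricter low-count filter (1 CPM in 3 libraries), no robust step, only the groups compared, no fold threshold, each library left out, and a replicate block.

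The 44 genes and the other lists were chosen with earlier results of these data known. Named genes were the 44, with fold changes for those called and for a fixed set of sensors and factors, called genes of the pathway lists, and a few fixed pathway genes. Values of Ifit2, Oas3, Trim25, Epsti1 and Mx1, and those of Tlr3, Socs3 and the like outside a call, were added to account for every gene. A result for 1 gene of the pathway lists is not reported here. Exons of 16 of the 44 genes overlap another gene, and Ifit3 and Ifit3b, the GBP genes and Oas1a have near-identical copies, so their values are uncertain where reads could be split.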

Additional observations from a re-analysis of the deposited data

Results flagged for a closer look

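For 12 genes the response to senescence differed between genotypes by the interaction in edgeR's quasi-likelihood test, given as the KO log2 fold change less the WT one. Among the 44 genes these were Rsad2 (−3.65), Gbp2 (−1.02), Ifitm3 (−0.78), Irf9 (−0.67), Samd9l (−0.47), Irf1 (−0.47), Ifi27 (−0.38) and Eif2ak2 (−0.34). Among the other ISGs they were Tgtp1 (−2.68), Gbp9 (−1.76), Trim30a (−1.54) and Uba7 (−1.14). Control libraries held few reads of Rsad2, 5 in WT and 19 in KO cells, so the size of its value is uncertain. All 12 values were negative. For Irf1 the response was a fall in KO cells, and for the other 11 it was a smaller rise in KO than in WT cells or a rise that passed in WT cells only. The 44 genes were taken here at any size of interaction, and genes of the other lists only if called. At any size, 9 of the 43 other ISGs passed as lower in KO cells and 0 as higher, against 11.7% and 9.24% of all genes. In the list of 12 adaptors and kinases 2 passed as lower and 3 as higher, and among 10 negative regulators 2 and 1. Among 11 receptor and JAK-STAT genes 3 passed as lower and 0 as higher, and among 12 DNA sensing genes 1 and 0.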

How the results depend on the processing

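Counts of senescence calls stayed within 1.5 times of 37 in WT cells (35 to 38 on leaving out 1 library) and of 28 in KO cells (26 to 30), except that 1 gene, Irf1, was lower in KO senescent cells with no fold threshold. The median log2 fold change in KO cells was 1.34 without KO senescent replicate 3 and 1.34 to 2.01 over the 12 libraries left out. The count of interactions called lower, 2, ran from 0 to 11 on leaving out 1 library, with 0 without WT control replicate 2, KO control replicate 2, KO senescent replicate 1 or KO senescent replicate 2, 1 when control library 1 or 3 of either genotype, or WT senescent library 2, was omitted, 3 without WT senescent replicate 1 and 11 without KO senescent replicate 3. It was 1 with DESeq2 size factors and 8 with no fold threshold. The count called lower in KO against WT senescent cells, 1, ran from 0 (without WT senescent replicate 2) to 13 (without KO senescent replicate 3) on leaving out 1 library. It was 2 when replicate 3 of WT control, WT senescent or KO control cells, or replicate 2 of KO senescent cells, was omitted, and 3 for replicate 1 of WT senescent or of KO control cells. It was 2 with the DESeq2 Wald test, 3 with no low-count filter, 0 with only the groups compared and 7 with no fold threshold. The count called higher in KO control cells, 0, was 3 with no fold threshold. Of the fold changes followed singly, those of Zbp1 changed sign on leaving out 1 library, with ranges of −0.38 to 0.53 (interaction), −0.34 to 0.31 (KO against WT control) and −0.44 to 0.47 (KO against WT senescent). For these 115 fold changes (genes called, genes that passed between genotypes and a fixed set), 2023 alternatives kept direction and side of the threshold, 102 no longer passed, 32 newly passed and 11, all of Zbp1, changed sign. Over all 44 genes the sign changed on leaving out 1 library for 1 gene with senescence in WT and 2 in KO cells, 9 in the interaction, 10 between control and 14 between senescent cells, and 0 of these had passed the test with all 12 libraries. The cause of these changes was not tested.

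Replicate numbers are not stated to mark a shared origin, and correlations of same-numbered libraries ran from −0.125 to 0.108, so the numbers were not taken to pair the libraries. With the replicate block 4 interactions were called lower, and the other counts of calls were 37, 28, 0 and 1. Low genes were limited by depth, where 3 reads were worth 0.101 to 0.135 CPM.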
